A study of Mus musculus with 4 samples.

Results

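Axon guidance genes were followed by Visium in olfactory bulb sections of 1 mutant and 1 control mouse, which captures polyadenylated RNA in barcoded spots that can each hold several cells. The 67 members are all genes of the matrix whose symbols belong to the semaphorins of classes 3 to 7, their plexin receptors, the Eph receptors and ephrins, the Slits and Robos, and the netrins with Unc5a to Unc5d and Dcc. They were chosen by symbol alone, out of 32285 genes. The labels describe a transgenic soluble VEGFR1, a decoy that binds vascular endothelial growth factor (VEGF), expressed in the brain through a tetracycline-regulated Camk2a-tTA driver. The mutant mouse had VEGF blocked at embryonic stage E13.5, and the mouse of each group was taken at 5 months of age. Each genotype was thus 1 animal, the control with 3 coronal sections and the mutant with 4, each spread over 2 capture areas. The series text describes the mutant bulb as degenerated, and the labels do not say whether the control mouse carried any part of the transgene.

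The deposited matrix numbers its spots 1 to 4, and these numbers match no sample label, so the 4 libraries are given by number, without a genotype, and control was not compared with mutant. The libraries held 1662, 715, 1296 and 943 spots of at least 500 unique molecular identifiers (UMIs, counts of captured molecules), with medians of 7186 to 9829 UMIs per spot. Between 62 and 603 position barcodes recurred in each pair of libraries, as barcodes mark a place on the slide. Levels below are UMIs per 1000000 UMIs of a library (CPM), in the order of libraries 1, 2, 3 and 4, and 3 UMIs correspond to 0.225 to 0.574 CPM. The tissue label was checked against marker genes. No marker was at 0 UMIs over the libraries, and granule cell markers summed to 3572, 3840, 2514 and 2393 CPM. The markers of forebrain excitatory neurons summed to 304.8, 365.2, 1766 and 1896 CPM, and those of reactive glia to 210.3, 198.9, 2199 and 1796 CPM. Levels were not compared between genes, since the files give no length or capture efficiency. In spots, fewer cells of a type and less RNA per cell cannot be told apart.

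Guidance genes steer growing axons and migrating neurons. Semaphorins signal through plexins, with neuropilins as co-receptors for most class 3 members. Ephrins signal through Eph receptors, Slits through Robos, and netrins through Dcc, which mostly mediates attraction, and Unc5 receptors, which mediate repulsion. In the olfactory system, secreted semaphorins sort the axons of sensory neurons, Slits and Robos direct the neuroblasts that reach the bulb along the rostral migratory stream, and Eph receptors and ephrins act in both. Several members also act on vessels, among them Plxnd1, Ephb4, Efnb2 and Robo4.

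All 67 members were detected in each library, and together they took 1543, 1596, 1779 and 1767 CPM. A total of 42 reached 500 UMIs with at least 3 in each library, and 25 did not. Of the 42, 10 (23.8%) differed over 2-fold between the highest and the lowest library, against 7.85% of the 9852 genes past the same minimums. Without library 4 the count was 6 of 35, which is not set against all genes here. The median fold between those libraries was 1.56 over the 42 members and 1.24 over all those genes. Of the 10, 7 were highest in library 4, and Plxna1 (2.19-fold) was the last inside the 2-fold limit while Sema4f (1.97-fold) and Sema3c (1.94-fold) fell just outside it. The plot of member levels by library shows these 15 widest and the 15 narrowest. The libraries are not replicates of a group, so no test was made, and intervals cover counting error only.

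**Figure D1:**
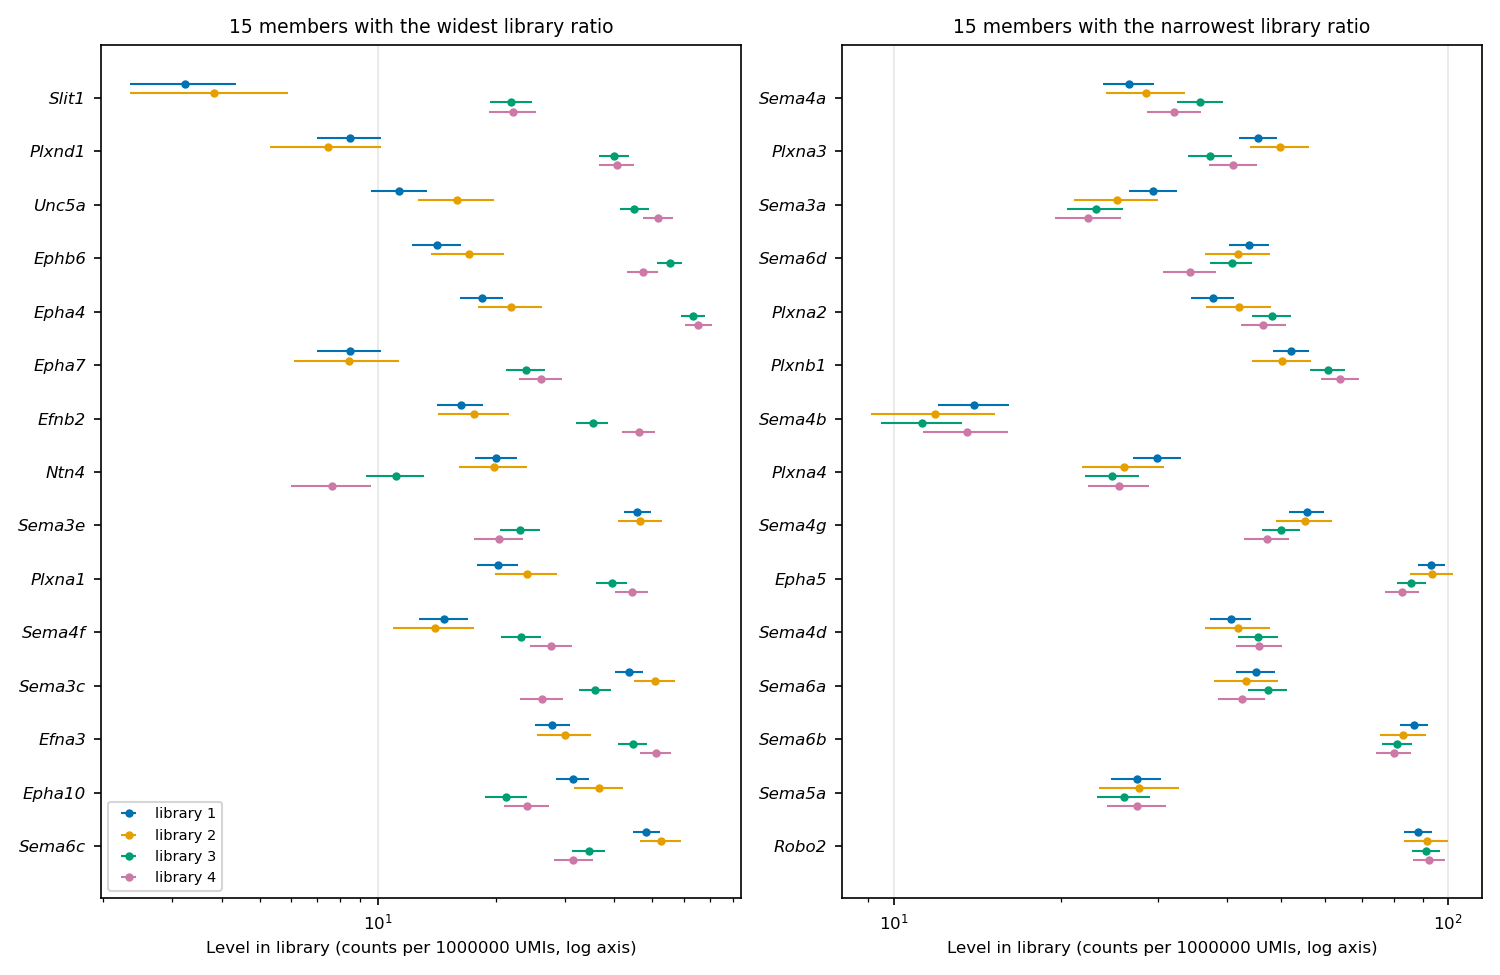
Level of guidance genes in each library (counts per 1000000 UMIs, log axis), for the 15 members with the widest fold between libraries on the left and the 15 with the narrowest on the right; points are libraries 1 to 4 and bars are 95% exact Poisson intervals. Slit1 runs from 3.23 to 22.03 CPM, while the 4 values of Robo2 lie between 88.2 and 92.4 CPM.

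The Eph receptors held 3 of the 10. Epha4 (ENSMUSG00000026235), a receptor of both ephrin classes, stood at 18.4, 21.8, 63.3 and 65.5 CPM, a ratio of 3.55 (95% interval 3.06 to 4.14). Epha7 (ENSMUSG00000028289) stood at 8.49, 8.42, 23.8 and 26.0 CPM, a ratio of 3.09 (2.23 to 4.36). Ephb6 (ENSMUSG00000029869), a receptor whose kinase domain is inactive, stood at 14.1, 17.0, 55.3 and 47.2 CPM, a ratio of 3.91 (3.33 to 4.62). In each of these genes the values of libraries 3 and 4 lay above those of libraries 1 and 2, and the counting intervals did not overlap. Epha5 was nearly level at 93.3, 93.4, 85.8 and 82.7 CPM. Epha10, which also lacks kinase activity, ran the other way at 31.3, 36.6, 21.2 and 23.9 CPM, and Epha3 stood at 14.4, 12.6, 12.7 and 9.75 CPM. The remaining Eph receptors were below 500 UMIs. Ephb3 stood at 4.74, 4.59, 14.8 and 14.0 CPM, Ephb2 at 2.71, 3.45, 9.33 and 8.71 CPM, and Ephb4, an endothelial receptor of veins, at 3.23, 4.98, 9.02 and 9.34 CPM. Ephb1 had a ratio of 2.61. Epha2 was higher in the other libraries, at 9.62, 9.57, 4.87 and 4.62 CPM, and Epha8, Epha6 and Epha1 had only 83, 23 and 13 UMIs.

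The Epha4, Epha7, Ephb6 and Unc5a genes were also high together in the Trbc2 region of the tissue, in the libraries that held it (below). Sema4f and Slit1 were high there too, but their sequences are not printed, so the printed set is a selection. The 250 bases before the annotated starts of Epha4, Epha7, Ephb6 and Unc5a are printed, with those of Sema3d, whose levels followed other spots. They are RefSeq sequences of GRCm38.p6, the build of the sequence table, and 57 of the 67 members had an entry. Capitals mark the GC box, searched as GGGCGG and CCGCCC on both strands with overlaps counted.

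Epha4 promoter, chr1:77515089-77515338, minus strand: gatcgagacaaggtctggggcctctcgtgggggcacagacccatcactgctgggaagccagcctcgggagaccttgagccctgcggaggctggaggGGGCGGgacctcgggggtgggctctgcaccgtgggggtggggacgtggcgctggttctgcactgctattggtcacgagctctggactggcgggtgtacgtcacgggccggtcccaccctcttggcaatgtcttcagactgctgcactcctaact
Epha7 promoter, chr4:28812881-28813130, plus strand: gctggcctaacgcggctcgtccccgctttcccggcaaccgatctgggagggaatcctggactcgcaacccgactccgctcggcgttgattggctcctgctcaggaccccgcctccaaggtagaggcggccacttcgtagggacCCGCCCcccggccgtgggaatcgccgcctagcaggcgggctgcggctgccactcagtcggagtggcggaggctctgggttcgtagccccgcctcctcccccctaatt
Ephb6 promoter, chr6:41605261-41605510, plus strand: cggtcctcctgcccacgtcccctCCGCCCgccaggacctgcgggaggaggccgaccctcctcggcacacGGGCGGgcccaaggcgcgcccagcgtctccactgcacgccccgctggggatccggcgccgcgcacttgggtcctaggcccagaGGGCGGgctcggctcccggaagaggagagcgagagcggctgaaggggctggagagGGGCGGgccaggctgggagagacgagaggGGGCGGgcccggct
Unc5a promoter, chr13:54949161-54949410, plus strand: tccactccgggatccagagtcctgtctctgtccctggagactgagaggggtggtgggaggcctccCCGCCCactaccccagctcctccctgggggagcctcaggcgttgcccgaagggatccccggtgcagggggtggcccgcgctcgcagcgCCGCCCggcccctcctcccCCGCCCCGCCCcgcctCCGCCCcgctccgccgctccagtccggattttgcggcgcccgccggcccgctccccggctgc
Sema3d promoter, chr5:12382916-12383165, plus strand: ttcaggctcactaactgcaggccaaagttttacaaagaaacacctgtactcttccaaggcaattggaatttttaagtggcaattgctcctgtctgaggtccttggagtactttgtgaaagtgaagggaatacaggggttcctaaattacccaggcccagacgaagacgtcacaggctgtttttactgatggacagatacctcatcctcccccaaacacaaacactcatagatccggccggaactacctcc

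Epha4 and Epha7 had 1 GC box each, Ephb6 and Unc5a 5 each, and Sema3d none. GC content was 66.0% for Epha4, 69.2% for Epha7 and 76.8% for both Ephb6 and Unc5a, against 46.8% for Sema3d and a median of 52.0% over all promoters. No median was taken over the promoters of genes with at least 500 UMIs alone. A GC box was present in 41 of the 57 member promoters (71.9%) and in 32.9% of all 27025 promoters. Among genes with at least 500 UMIs it was in 25 of 35 member promoters (71.4%) and in 61.9% of 7858 promoters. The E-box letters CANNTG, searched separately from the GC box, were in 27 of the 57 (47.4%) and in 66.0% of all promoters. Among genes with at least 500 UMIs they were in 15 of 35 member promoters (42.9%) and in 55.2% of promoters, and Sema3d had 3 of them.

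Among the ephrins, Efnb2 (ENSMUSG00000001300), a membrane-bound ligand of neurons and arteries, stood at 16.2, 17.6, 35.2 and 46.2 CPM, a ratio of 2.84 (2.41 to 3.36). Efna3, anchored to the membrane by a lipid, stood at 27.8, 29.9, 44.5 and 51.0 CPM (1.83-fold). Efnb3 had the opposite order, with 77.6, 84.8, 56.4 and 54.1 CPM, and Efnb1 stood at 17.3, 16.3, 22.2 and 20.9 CPM. The other A-class ligands were sparse. Efna2 stood at 7.97, 8.42, 7.26 and 8.50 CPM, Efna1 and Efna5 had ratios of 2.06 and 1.301, and Efna4 had 52 UMIs in all, 1 of them in library 2.

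Slit1 (ENSMUSG00000025020), a secreted repellent, had the widest ratio of the 42, at 3.23, 3.83, 21.9 and 22.03 CPM (6.82-fold, 4.89 to 9.70). Slit2, below the minimum at 300 UMIs, was at 1.65, 2.30, 10.6 and 14.0 CPM (8.44-fold, 5.35 to 13.9), and Slit3 at 1.503, 2.30, 4.87 and 4.72 CPM. All 3 ligands were thus higher in libraries 3 and 4, though Slit3 had only 138 UMIs and its intervals in libraries 2 and 3 overlapped. Their receptor Robo2 (ENSMUSG00000052516) had the narrowest ratio of the 42, at 88.2, 91.5, 91.3 and 92.4 CPM (1.05-fold, 0.959 to 1.14). Robo1 stood at 14.4, 16.8, 22.6 and 18.8 CPM. Robo3, a receptor of crossing axons with 140 UMIs, stood at 0.225, 1.53, 6.38 and 5.14 CPM. Its ratio of 28.3 rests on 3 UMIs in library 1 and has an interval of 9.34 to 140. Robo4, an endothelial receptor, stood at 6.39, 5.93, 4.71 and 4.93 CPM.

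Of the netrins, Ntn4 (ENSMUSG00000020019), a basement membrane protein, was higher in libraries 1 and 2, with 19.99, 19.7, 11.1 and 7.66 CPM (2.61-fold, 2.01 to 3.43). Ntn1, the attractant bound by Dcc, had 354 UMIs and stood at 7.59, 6.32, 10.3 and 9.54 CPM. Ntn3 had a ratio of 1.51. Ntn5 stood at 0.451, 0.191, 6.46 and 5.66 CPM, a ratio of 33.8 that rests on 1 UMI in library 2 (5.89 to 1350). Among the receptors, Unc5a (ENSMUSG00000025876) stood at 11.3, 15.9, 45.0 and 51.7 CPM (4.56-fold, 3.79 to 5.50), with libraries 3 and 4 again apart from the others. The related Unc5c stood at 10.7, 9.57, 14.9 and 15.1 CPM, Unc5d at 11.6, 10.5, 14.4 and 12.7 CPM, Unc5b at 8.27, 10.9, 10.1 and 9.34 CPM, and Dcc at 11.6, 14.4, 7.02 and 10.6 CPM.

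Of the 7 secreted class 3 semaphorins, 6 were highest in library 1 or 2. Sema3e (ENSMUSG00000063531), the ligand that binds Plxnd1 without a neuropilin, stood at 45.8, 46.5, 23.0 and 20.3 CPM, a ratio of 2.29 (1.89 to 2.78). Sema3c stood at 43.5, 50.7, 35.7 and 26.1 CPM, Sema3f at 22.7, 26.4, 19.1 and 16.0 CPM, and Sema3a, a repellent of sensory axons, at 29.4, 25.3, 23.1 and 22.4 CPM. Sema3d (ENSMUSG00000040254) stood at 14.96, 16.1, 13.48 and 11.3 CPM. Sema3b and Sema3g, both below the minimum, went opposite ways: Sema3b stood at 2.33, 2.11, 16.1 and 11.96 CPM (7.65-fold, 4.19 to 15.6) and Sema3g at 3.68, 6.13, 1.99 and 2.20 CPM.

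Among the membrane-bound semaphorins, none of the 12 past the minimum in classes 4 to 7 reached 2-fold. Sema4f came closest, at 14.7, 14.0, 23.1 and 27.6 CPM (1.97-fold, 1.52 to 2.59). Sema4g stood at 55.7, 55.1, 49.9 and 47.1 CPM and Sema4d, a ligand of Plxnb1, at 40.6, 41.7, 45.5 and 45.6 CPM. Sema4a and Sema4b had ratios of 1.35 and 1.24, and Sema4c, with 297 UMIs, 1.59. Sema5b stood at 41.2, 39.2, 28.6 and 24.9 CPM, while Sema5a was even at 27.4, 27.8, 26.0 and 27.5 CPM. Sema6b stood at 87.0, 83.1, 80.9 and 79.8 CPM and Sema6a at 45.0, 43.3, 47.3 and 42.5 CPM. Their relative Sema6c stood at 48.3, 52.5, 34.4 and 31.5 CPM, and Sema6d had a ratio of 1.28. Sema7a, the lipid-anchored ligand of Plxnc1, stood at 70.5, 65.5, 45.4 and 48.6 CPM (1.55-fold, 1.40 to 1.73).

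On the receptor side, Plxnd1 (ENSMUSG00000030123), known from endothelium and neurons, stood at 8.49, 7.47, 39.9 and 40.6 CPM (5.44-fold, 3.91 to 7.77), opposite to its ligand Sema3e. Plxna1 (ENSMUSG00000030084) stood at 20.2, 23.9, 39.4 and 44.4 CPM (2.19-fold, 1.88 to 2.57). Plxnc1 was at 32.2, 32.0, 51.4 and 49.4 CPM, opposite to its ligand Sema7a. The other A plexins were nearer to level: Plxna2 stood at 37.7, 41.9, 48.1 and 46.5 CPM, Plxna3 at 45.5, 49.8, 37.3 and 41.0 CPM and Plxna4 at 29.9, 26.0, 24.8 and 25.5 CPM. Plxnb2 stood at 56.7, 62.6, 79.9 and 86.8 CPM, Plxnb1 at 52.2, 50.2, 60.7 and 63.9 CPM, and Plxnb3, an oligodendrocyte plexin, had 265 UMIs and a ratio of 1.77.

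Partners of the same pathways were described from 4 lists of 66 genes. Of the co-receptors and binding partners, 13 of 20 passed the minimums and 4 were over 2-fold. Nrp2, the neuropilin that binds Sema3f, stood at 3.76, 2.68, 27.1 and 31.9 CPM (11.9-fold, 6.98 to 22.02). The adhesion molecule Chl1 stood at 18.1, 17.2, 75.6 and 83.6 CPM. Flrt2, a ligand of Unc5 receptors, and Lrrc4c, a partner of netrin-G proteins, were likewise higher in libraries 3 and 4, with ratios of 4.74 and 2.42. Of the intracellular effectors of Eph and ephrin signalling, 13 of 14 passed and 3 were over 2-fold. These were Ngef, an exchange factor that binds Epha4, at 43.1, 45.0, 137 and 151 CPM, the Rac regulator Chn1 at 208, 204, 407 and 467 CPM, and Kalrn at 96.0, 112, 191 and 201 CPM. None of the 14 semaphorin-plexin effectors or of the 16 Slit-Robo and netrin effectors past the minimums was over 2-fold. The background for all 4 lists is the 7.85% given above.

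To place the members in the tissue, spots were clustered into 11 regions on genes that excluded every member, pathway gene and marker. Each region is called by a leading gene, which is a name and no cell type. The libraries held different regions: the Trbc2 region took 0, 0, 205 and 179 spots, the Ces1a region 4, 0, 201 and 157, the Fmod region 21, 18, 161 and 98, the Gal region 425, 175, 11 and 6, the Lcn11 region 209, 47, 9 and 16, and the Car9 region 2, 0, 226 and 169. Only the Cpne6 region, with 65, 65, 272 and 143 spots, had 30 or more in every library. In the Trbc2 region the forebrain excitatory neuron markers were raised by a median log2 of 3.03 and 2.85 in libraries 3 and 4, in the Fmod region the leptomeninges markers by 2.72 and 2.38, in the Ces1a region the disease-associated microglia markers by 2.70 and 3.37, the nasal mucosa markers by 2.85 and 1.996 and the reactive glia markers by 2.62 and 2.63, and in the Lcn11 region the nasal mucosa markers by 5.07 and 5.10 in libraries 1 and 2. Library ratios without each region are given further on.

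A member was counted as high in a region when it was over 2-fold above the rest of the library in every library with at least 30 spots of that region. This held for 11 of the 42 members (26.2%) in at least 1 region, against 14.5% of all 9860 genes and 11.8% of the 8809 genes that were not used for clustering. The count depends on how the regions are drawn: it was 18 at a finer clustering and 22 with genes centred within libraries, where 22.5% and 19.6% of all genes passed, and 17 of 36 without library 1, where 20.1% of all genes passed. In the Trbc2 region 6 members were high (4.13% of all genes were) and 14 were over 2-fold lower than the rest of the library (11.1% of all genes were).

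Epha4 was at 170 CPM (156 to 185) in the Trbc2 region of library 3, against 27.9 CPM in the rest, and at 146 CPM (132 to 162) against 35.3 CPM in library 4. Ephb6 was at 131 against 29.9 CPM in library 3 and at 107 against 24.9 CPM in library 4. Epha7 was at 56.2 against 13.0 CPM and at 58.6 against 13.8 CPM. These 3 receptors and Unc5a (101 against 26.3 CPM, and 94.9 against 35.6 CPM) had their highest level of any region with 30 spots there, in both libraries. Sema4f, at 41.2 against 17.1 CPM and 54.4 against 17.6 CPM, and Slit1, at 42.4 against 15.001 CPM and 34.7 against 17.3 CPM, were also high. Slit1 passed the limit narrowly, with a lowest log2 ratio of 1.001. Among low-count members, Robo3 was at 18.5 against 2.34 CPM and 13.496 against 2.02 CPM there, and Slit2 at 18.8 against 7.87 CPM and 23.1 against 10.5 CPM. Ngef, the effector that binds Epha4, was raised in the Trbc2 region by a lowest log2 of 2.20, Chn1 by 1.88 and Kalrn by 1.59.

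The 14 members that were low in the Trbc2 region were Sema3d, Sema3e, Sema3f, Sema4g, Sema5a, Sema5b, Sema6a, Sema6c, Plxna3, Plxnb1, Plxnb2, Efnb3, Epha3 and Ntn4. Semaphorins were 8 of these 14, and 17 of the 42 members tested. Sema5b, a repellent transmembrane protein, was at 7.34 CPM in library 3 and 5.40 CPM in library 4, with log2 ratios of -2.27 and -2.55. Sema3e was at 8.61 and 7.33 CPM, and Plxnb2 at 38.3 and 42.4 CPM, with log2 ratios of -1.29 and -1.28. Sema7a, whose level over all spots was lower in libraries 3 and 4, was instead higher there, at 65.1 against 38.8 CPM and 82.5 against 35.9 CPM, short of 2-fold in library 3.

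Other members were high in the Lcn11, Ces1a and Fmod regions. There were 5 of 42 (11.9%) in the Lcn11 region, against 3.72% of all genes. The 2 in the Ces1a region (4.76%, against 5.76%) and the 1 in the Fmod region (2.38%, against 1.91%) were near the share of all genes. Sema3d was at 28.9 against 11.5 CPM and 26.3 against 10.1 CPM in the Fmod region of libraries 3 and 4, and at 27.0 and 27.2 CPM in the Ces1a region. Robo1 was at 40.2 against 20.3 CPM and 36.0 against 17.4 CPM in the Fmod region, just short of the limit. Ephb4 and Robo4, both endothelial, were there at 29.7 against 6.39 CPM and 22.1 against 8.29 CPM, and at 9.89 against 4.05 CPM and 13.8 against 4.20 CPM, and the endothelium markers were raised there by a median log2 of 1.46 and 1.67. The part of the endothelial markers in these values was not tested.

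In the Ces1a region Plxnb2 was at 152 against 66.4 CPM and 157 against 74.9 CPM, and in the Lcn11 region of libraries 1 and 2 at 122 against 49.8 CPM and 121 against 59.8 CPM. Efnb1, at 37.2 against 19.4 CPM and 39.3 against 17.7 CPM, was close to the limit in the Ces1a region. Plxnd1 was at 25.7 against 6.65 CPM in the Lcn11 region of library 1, and at 33.3 CPM, from 8 UMIs, against 6.22 CPM in library 2. Plxna1 was at 38.2 against 18.3 CPM and 54.1 against 22.5 CPM there, and Efna3 at 63.9 against 23.96 CPM and 83.3 against 27.3 CPM. Of the low-count ligands, Ntn1 was at 29.0 against 6.81 CPM and 31.4 against 5.78 CPM in the Ces1a region, and Sema3b at 52.4 against 9.37 CPM and 49.3 against 5.53 CPM. The same region was low in 8 members, Epha3, Epha4, Epha5, Epha7, Epha10, Ephb6, Unc5a and Slit1 (7.48% of all genes were low there), of which 6 are Eph receptors, all those past the minimum.

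In the Gal, Car9, Shisa3, Klhl30, Trh, Cpne6 and C1ql1 regions 0 members were high by this limit, and 0.396%, 0.588%, 0.162%, 0.588%, 0.0406%, 1.77% and 0.203% of all genes were, in that order. In the Car9 region 6 members were over 2-fold lower (2.07% of all genes), namely Epha4, Epha7, Epha10, Ephb6, Unc5a and Slit1. Here too the rest of the library includes the Trbc2 spots, and their part in these ratios was not tested. Sema3c was at 83.2 against 36.6 CPM, 87.8 against 42.4 CPM and 68.4 against 35.2 CPM in the Klhl30 region of libraries 1, 2 and 3, just under the limit in the lowest. Sema5b was at 60.3 against 31.3 CPM and 58.4 against 29.9 CPM in the Gal region, where periglomerular neuron markers were raised by 1.13 and 1.251. Sema4d had its highest region ratio in the Cpne6 region, at 75.9, 82.2, 85.1 and 76.4 CPM against 39.7, 39.2, 38.8 and 42.4 CPM in the rest. Granule cell markers were raised in that region by a median log2 of 1.21, 0.9996, 1.42 and 1.37.

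**Figure D2:**
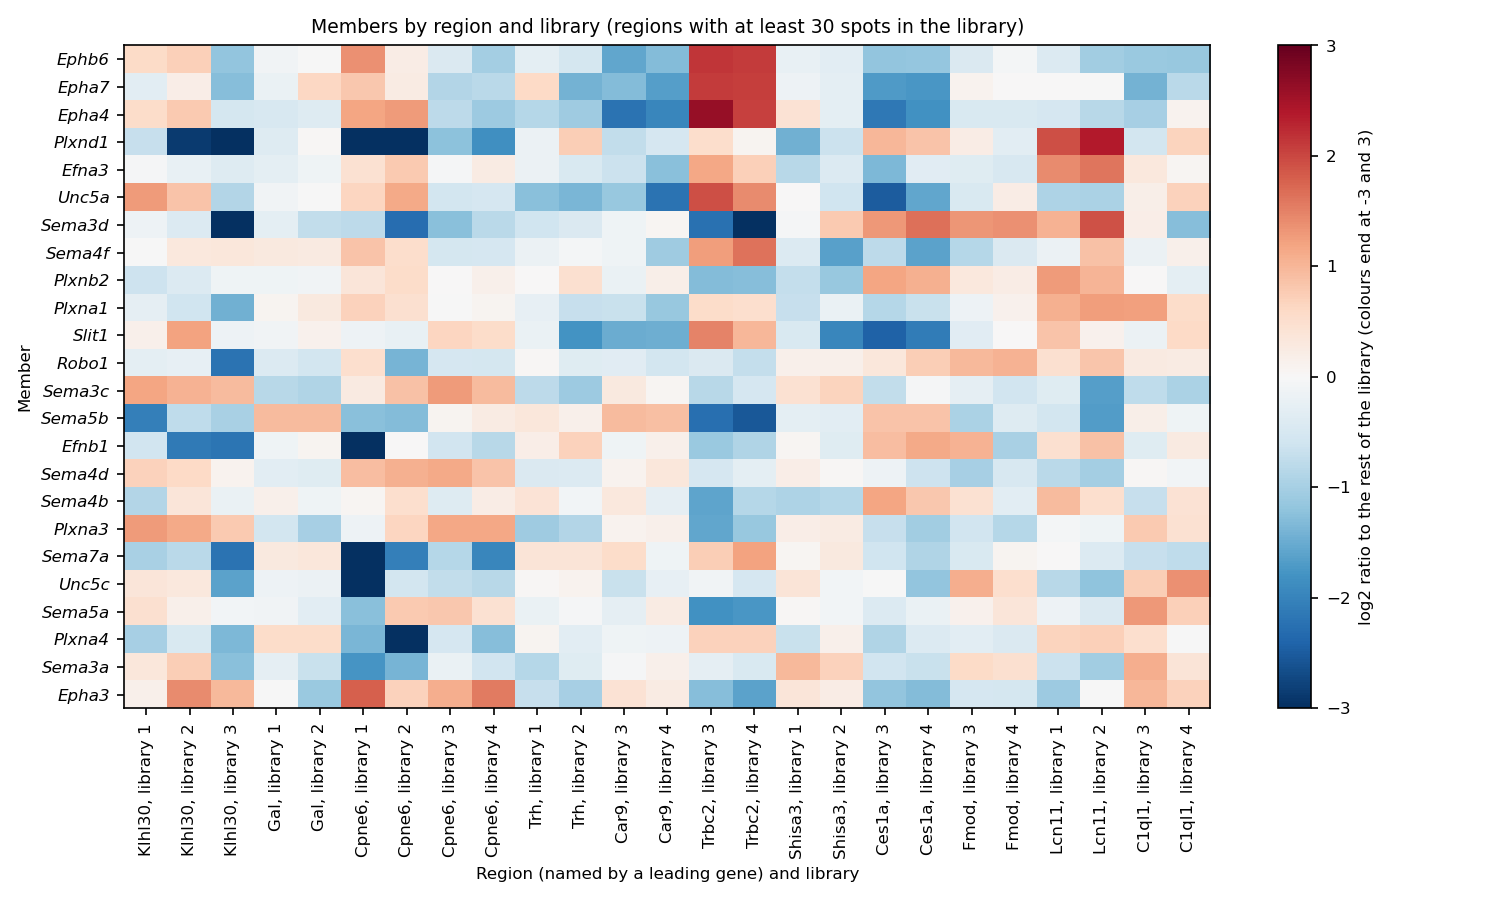
The 24 members with the highest lowest-library log2 ratio (rows) across each region and library with at least 30 spots (columns); colour is the log2 ratio of a member's level in the region to the rest of its library, with colours ending at -3 and 3. Epha4, Epha7 and Ephb6 are high in the Trbc2 columns and low in the Ces1a columns, and Sema3d is high in the Fmod, Ces1a and Lcn11 columns.

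The regions of ligands and their receptors were set side by side for the 12 of 23 listed semaphorin, Slit and netrin pairs with both partners at 500 UMIs or more. Most regions were read in only a pair of libraries, so partners often come from different libraries and no overlap is read from them. Each gene is placed in the region with its highest ratio to the rest of the library, taken in the lowest library. That region need not hold its highest level. Sema3e was placed in the Car9 region of libraries 3 and 4, at 31.9 against 20.8 CPM and 37.97 against 15.7 CPM, and its receptor Plxnd1 in the Lcn11 region of libraries 1 and 2. Sema3a was placed in the Shisa3 region, at 48.0 against 24.4 CPM and 36.6 against 22.6 CPM, and its receptor Plxna4 in the Trbc2 region. Slit1 was placed in the Trbc2 region, Robo1 in the Fmod region and Robo2 in the C1ql1 region, at 134 against 87.7 CPM and 137 against 84.8 CPM.

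Because no region other than Cpne6 was well filled in all libraries, the members were also read in the 10% of spots of each library with the largest share of a cell type's markers, 167, 72, 130 and 95 spots. Of the 42 members, 5 (11.9%) were over 2-fold above the other spots in all 4 libraries for at least 1 of the 19 lists, against 7.5% of 9744 genes outside the lists. Epha4 in the spots highest in forebrain excitatory neuron markers was at 58.4 against 17.4 CPM in library 1, 75.7 against 19.8 CPM in library 2, 171 against 41.6 CPM in library 3 and 164 against 47.6 CPM in library 4 (0.462% of all genes were high in such spots). Unc5a was at 30.7 against 10.9, 48.6 against 14.7, 104 against 33.0 and 99.0 against 43.1 CPM in the same spots. These ratios held in the libraries without a Trbc2 region too, but rest there on 19 and 14 UMIs of Epha4. Marker shares were lower there, at medians of 1784 and 1774 CPM against 5357 and 5739 CPM in libraries 3 and 4. Oligodendrocyte markers were the most raised other list in libraries 1 and 2, at 2145 against 958.2 CPM and 2290 against 981.6 CPM. The ratios there are thus not read as those of forebrain excitatory neurons. Those spots were shallow in libraries 1 and 2, with medians of 1533 and 2399.5 UMIs against 14869.5 and 14956 in libraries 3 and 4, and the part of depth in the ratios was not tested. Ephb6 was at 36.9 against 13.6, 27.0 against 16.7, 128 against 40.6 and 102 against 37.2 CPM, and so short of 2-fold in library 2. Epha7 was at 9.22 against 8.47 CPM and 10.8 against 8.34 CPM in libraries 1 and 2, against 59.6 and 70.3 CPM in libraries 3 and 4. In these spots of libraries 1 and 2 the levels of Unc5a, Ephb6 and Epha7 were below those of Epha4, so they rest on fewer UMIs still. Neither a rise nor the lack of one is read from the Epha7 values there.

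Sema3d in the spots highest in leptomeninges markers was at 38.1 against 13.1, 47.4 against 13.0, 39.2 against 10.95 and 34.8 against 9.58 CPM, so its ratio was alike in all 4 libraries. It was also over 2-fold in every library in the spots highest in markers of olfactory sensory neuron axons, ensheathing glia, disease-associated microglia and nasal mucosa (1.3%, 3.61%, 2.99% and 1.65% of all genes). Robo1 was at 27.1 against 13.4, 45.2 against 14.1, 42.8 against 20.6 and 39.4 against 17.2 CPM in the spots highest in leptomeninges markers (2.42% of all genes were high in them). Plxnb2 in the spots highest in markers of olfactory ensheathing glia, the glia that wrap sensory axons, was at 109 against 52.8, 138 against 55.7, 165 against 70.7 and 167 against 79.2 CPM (3.61% of all genes were high there). Leptomeninges markers were also raised in the ensheathing glia spots, at medians of 12950, 18560 and 16650 CPM in libraries 1 to 3 against 684.9, 689.2 and 1745 CPM elsewhere, so these lists cannot be told apart there. In the sensory axon spots of libraries 1 to 3 they stood at 7714, 6611 and 10090 CPM against 684.6, 691.4 and 1829 CPM. In the disease-associated microglia spots of libraries 1 and 2 they stood at 9741 and 13260 CPM against 681.3 and 691.4 CPM. The nasal mucosa spots of library 2 had 5580 against 711.5 CPM. The Sema3d ratios in these sets are thus not read as those of separate cell types.

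In the spots highest in granule cell markers, Epha10 was at 59.7 against 30.1, 70.1 against 34.6, 41.8 against 19.7 and 56.1 against 21.8 CPM, with a lowest log2 ratio of 0.99. Sema3c there was at 80.8 against 41.9, 122.7 against 46.6, 90.5 against 31.7 and 62.9 against 23.7 CPM. The granule cell spots of libraries 1 and 2 were shallow, with medians of 2414 and 3003 UMIs against 8651 and 7650 in the other spots. Forebrain excitatory neuron markers were the most raised other list in them, at 875.9 against 227.8 and 871.7 against 275.7 CPM. The part of depth and of these markers in the ratios was not tested. In the spots highest in mitral and tufted cell markers, the output neurons of the bulb, Sema3a was at 69.7 against 21.5, 53.0 against 19.7, 39.0 against 20.7 and 44.8 against 18.8 CPM. Sema6b there was at 133 against 77.9, 139 against 71.8, 135 against 72.6 and 130 against 71.6 CPM. By the 2-fold limit in every library, 0 members were high in the granule cell spots and 0 in the mitral and tufted cell spots. Of the genes outside the lists, 1.32% and 0.493% were. Slit1 in the spots highest in neuroblast markers stood at 6.34, 4.88, 37.4 and 40.9 CPM. In the other spots it stood at 3.08, 3.79, 20.9 and 20.8 CPM. Libraries 1 and 2 held only 43 and 20 UMIs of Slit1 over all spots, so their values in the neuroblast spots rest on few UMIs. The order of libraries is thus read in the other spots only, where libraries 1 and 2 were below libraries 3 and 4.

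**Figure D3:**
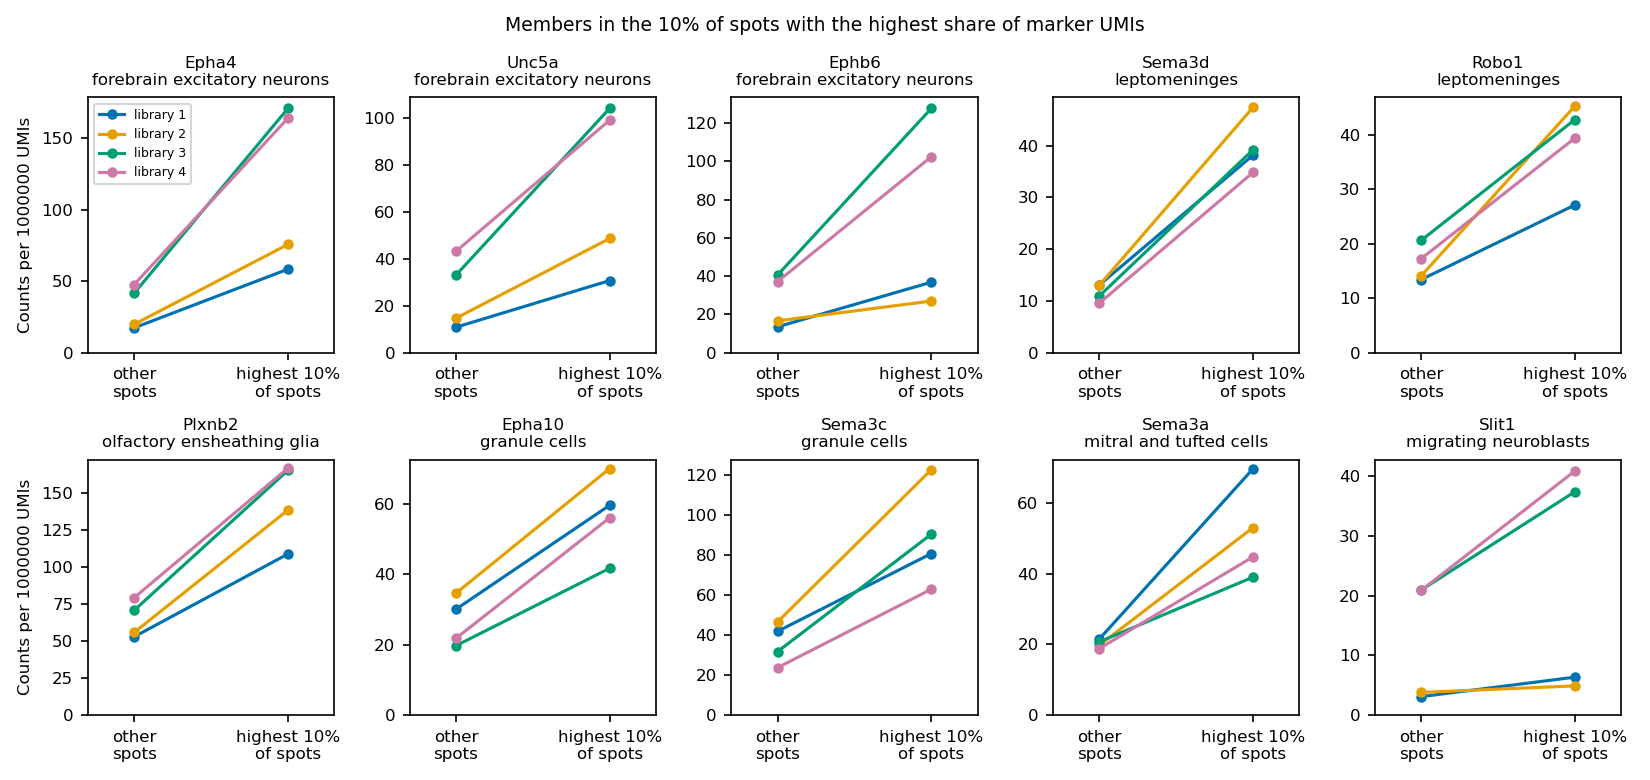
Level of 10 pairs of a guidance gene and a marker list (counts per 1000000 UMIs) in the 10% of spots of each library with the largest share of the list's UMIs and in the other spots; each line is a library. Epha4 rises from 17.4 to 58.4 CPM in library 1 and from 41.6 to 171 CPM in library 3, and the lines of Sema3d lie close together in all libraries.

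The library ratios were then recomputed without the spots of each region in turn, an alternative chosen after the regions were seen. Without the Trbc2 region, which libraries 1 and 2 lacked, 5 of 36 members were over 2-fold (13.9%; 6.45% of all 9432 genes). Of the 10 members over 2-fold with all spots, 6 stayed above 2, 5 of them past the 500 UMI minimum, and Epha4, Epha7, Sema3e and Plxna1 fell below 2. Epha4 then stood at 18.4, 21.8, 27.9 and 35.3 CPM (1.92-fold, 1.60 to 2.30), Epha7 at a ratio of 1.64 (1.14 to 2.40) and Ephb6 at 2.12 (1.75 to 2.56). Unc5a was at 11.3, 15.9, 26.3 and 35.6 CPM, a ratio of 3.14 (2.55 to 3.87). Slit1 and Plxnd1 kept wider ratios, at 5.35 (3.75 to 7.77) and 5.35 (3.81 to 7.68), and Efnb2 stood at 2.85 (2.39 to 3.40). With any other region left out the ratios of all 10 stayed over 2, and 9 to 12 members passed both limits, counts not set against all genes here.

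**Figure D4:**
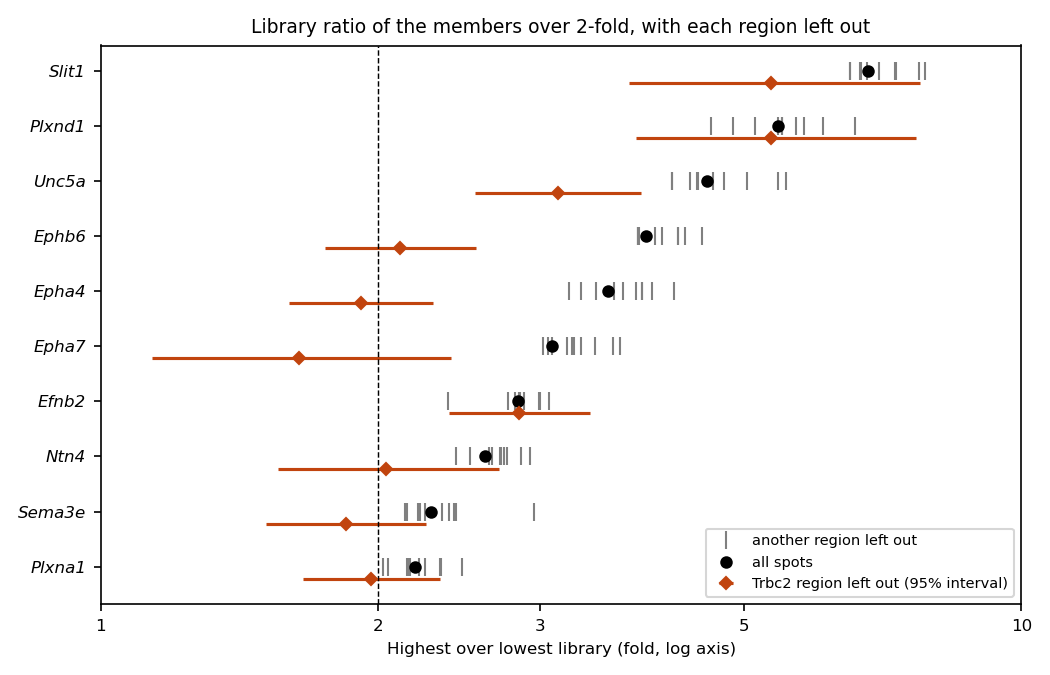
Highest over lowest library (fold, log axis) for the 10 members over 2-fold with all spots (black points), with the Trbc2 region left out (diamonds with 95% intervals) and with each other region left out (grey ticks); the dashed line marks 2-fold. Epha4 moves from 3.55 to 1.92 and Ephb6 from 3.91 to 2.12 without the Trbc2 region, while Efnb2 stays near 2.85.

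Within the Cpne6 region, the only one that all libraries held in number, 23 members had at least 100 UMIs, and 12 of them (52.2%) differed over 2-fold between libraries, against 12.9% of 6866 genes. The median ratio was 2.01 for the members and 1.44 for all those genes. Libraries 1 and 2 have only 342744 and 304022 UMIs there, against 1798130 and 902621 in libraries 3 and 4, so the intervals are wide. Each of the 12 ratios had a lower limit under 2. Low counts widen a ratio of highest to lowest library, and the 6866 genes were not matched to the members in counts. No excess of members is therefore read from these shares and medians. Of the 10 members, 5 could be read there. Ephb6 was at 35.0, 19.7, 42.3 and 24.4 CPM (2.14-fold, 0.94 to 6.02), with library 1 above library 4, and Unc5a at 17.5, 32.9, 32.3 and 37.7 CPM (2.15-fold, 0.89 to 6.27). Their intervals include 1, and neither kept the gap between libraries 1 and 2 and libraries 3 and 4 seen over all spots. Plxna1 had a ratio of 1.45 (0.73 to 3.12). Efnb2 did keep that order, and was at 14.6, 9.87, 32.3 and 44.3 CPM (4.49-fold, 1.43 to 22.7), Plxnb1 at 23.3, 46.1, 75.1 and 62.0 CPM (3.22-fold, 1.59 to 7.60) and Plxnc1 at 26.3, 23.0, 58.4 and 76.4 CPM (3.32-fold, 1.53 to 8.56). Epha4 was at 40.8, 49.3, 38.9 and 32.1 CPM, a ratio of 1.54 (0.77 to 2.96), so its order of libraries was not that of the whole tissue. Robo2, level over all spots, was at 72.9, 42.8, 100.7 and 103 CPM (2.41-fold, 1.34 to 4.69). Plxnd1 had 0 UMIs in the region in libraries 1 and 2, where 3 UMIs would be 8.75 and 9.87 CPM and the exact Poisson upper limits are 10.8 and 12.1 CPM. It stood at 18.4 (12.6 to 25.8) and 12.2 (6.08 to 21.8) CPM in libraries 3 and 4, so that the interval of library 4 overlaps those of libraries 1 and 2. Slit1 was at 2.92, 3.29, 31.7 and 31.0 CPM, with 1 UMI in each of libraries 1 and 2.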

How the data were processed

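The authors deposited 1 matrix of UMI counts for all spots. Space Ranger 1.3.1 made it, per the file headers, with GRCm39 as the build per the submitters' processing notes. Annotation and read filters: not given in the sources used here. Spots were assigned to libraries by barcode number, and no library to a mouse. Spots with at least 500 UMIs were kept (4616 of 4713). CPM was computed from UMIs summed per library, with 95% exact Poisson intervals and, for ratios, exact conditional binomial intervals. Labelled replicates are areas of the same mouse, so no test was run. All 6 pairs of libraries differed beyond sampling noise (lowest chi-square 2.71 per degree of freedom), so each counts as its own library.

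For regions, 2000 variable genes, without members, pathway or marker genes, gave 30 principal components, 15 neighbours and Leiden clusters at resolution 0.8 (scanpy 1.11.5). A region is named by the gene of highest fold among genes with 200 UMIs in it that does not name a larger region. Region ratios use a prior count of 0.5 shared out by depth. All members were named, with values for the 15 widest library ratios, the most counted of each family and the 15 highest region ratios. Further values, by region for low-count members and by marker list, were chosen after they were seen. Members and lists were chosen with earlier results of these data known. Scripts were tested on simulated data. Doublets were not called, since spots hold several cells.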

Additional observations from a re-analysis of the deposited data

How the results depend on the processing

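The number of members over 2-fold between libraries, 10 of 42, was 10 with TMM, with median-of-ratios size factors, with every deposited spot and with spots of at least 2000 UMIs, and 7 of 30 with a minimum of 1000 UMIs. It was 19 of 59 with a minimum of 200 UMIs and 24 of 64 with none, where all genes gave 10.9% and 19.8%. Leaving out 1 library gave 6 (without library 4) to 9 members, and leaving out the Trbc2 region, added after seeing the data, gave 5. The median log2 range of members ran from 0.46 to 0.71 over all settings. The 11 members high in a region became 18 at clustering resolution 1.2, 22 with genes centred within each library, 21 with spots of at least 2000 UMIs and 5 in spots ranked by markers, and leaving out 1 library gave 12 to 17 (17 without library 1). These 4 settings shared 11, 11, 9 and 4 members with the 11, and the cause was not tested. Counts printed here without a share of all genes are not set against that background. Epha4, highest in library 4 over all spots, had a ratio of library 4 to library 1 of 0.79 in the Cpne6 region. No paired analysis was possible because the libraries match no label and no result comes from a test. Depth limits the 25 members below 500 UMIs most.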

Other observations

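The 4 libraries carry no genotype, and their values were set side by side for the members as a whole. For Slit1, Plxnd1, Unc5a, Ephb6, Epha4, Epha7, Efnb2 and Plxna1, libraries 1 and 2 were close to each other and so were libraries 3 and 4, with the gap between these pairs wider than within them. Slit1, for example, stood at 3.23 and 3.83 CPM in the first pair and at 21.9 and 22.03 CPM in the second. Ntn4 (19.99, 19.7, 11.1 and 7.66 CPM) and Sema3e (45.8, 46.5, 23.0 and 20.3 CPM) had the same pairs in the opposite order. Over all genes, the chi-square per degree of freedom was 2.71 between libraries 1 and 2, 3.04 between libraries 3 and 4 and up to 44.0 between libraries of different pairs. The labels give no way to say what the pairs are.

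In some families the width of the library ratio differed between members. Unc5a had a ratio of 4.56 and Unc5d 1.37, Epha4 3.55 and Epha5 1.13, and among A plexins Plxna1 had 2.19 and Plxna4 1.21. In others the members had the same order: the 3 Slits and the 5 EphB receptors were each higher in libraries 3 and 4 than in libraries 1 and 2. Only 1 of the Slits and 1 of the EphB receptors passed the minimums, so this order rests mostly on low counts. For Slit3 the intervals of library 2 (1.19 to 4.01 CPM) and library 3 (3.72 to 6.25 CPM) overlapped. The share of all genes with this order was not counted.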
